A study of Mus musculus with 2 samples.

Results

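Oxidative phosphorylation subunits encoded in the nucleus were described in the mouse uterus before implantation. The members are the 83 genes of the deposited expression table whose symbols name subunits of the respiratory complexes: Nduf genes for complex I, Sdh genes for complex II, Uqcr genes and Cyc1 for complex III, Cycs for cytochrome c, Cox genes for complex IV and Atp5 genes for complex V. They were picked by symbol alone, from 22740 genes. Complex I has 36 members, complex II 4, complex III 9, complex IV 16 and complex V 17, with Cycs as a member by itself. The series holds a single group, whole uterus of C57BL/6 mice at pregnancy day 4, with 2 animals and 1 library each (WT1 and WT2 in the labels, here uterus 1 and uterus 2). No mutation or treatment is named for either animal, and without a second group no condition could be compared. Values are RPKM, reads scaled to the length of the transcript and the size of the library, so that levels can be set beside each other between genes.

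Respiratory complexes sit in the inner mitochondrial membrane. Complexes I and II pass electrons from NADH and succinate to ubiquinone, complex III passes them on to cytochrome c, and complex IV passes them to oxygen. Complexes I, III and IV pump protons while doing so, and complex V, the ATP synthase, lets the protons flow back through a rotating ring and makes ATP. Some subunits exist as isoforms from separate genes, one found in most tissues and another found mainly in heart and skeletal muscle, testis or other specialised tissue. The subunits that mitochondrial DNA encodes were not analysed here.

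The labelled tissue was checked first. All 8 genes of a list for progesterone response, receptivity and uterine muscle were at 1 RPKM or more in both uteri. Hoxa10, a homeobox gene of the uterus, was at 112.1 and 115.5 RPKM in the 2 libraries, and Myh11, the smooth muscle myosin heavy chain, was at 314 and 350 RPKM. Of 4 ovary and oviduct genes, 3 also passed 1 RPKM in both uteri, all higher in uterus 2. They were Ovgp1 at 5.78 and 9.31 RPKM, Star at 2.93 and 3.87 RPKM and Inha at 1.78 and 2.73 RPKM. Of 3 red blood cell genes only Alas2 passed, at 6.85 and 6.53 RPKM. The part of such cells in the levels was not tested. Estimates of the reads behind the values were worked back from the RPKM steps and summed to 3856803 in uterus 1 and 4285352 in uterus 2. RNA of a whole organ mixes muscle, stroma, epithelium and blood vessels, so that fewer cells of a type and less RNA per cell cannot be told apart.

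The respiratory subunits were among the more abundant messages of the uterus. Of the 83 members, 79 (95.2%) were at 1 RPKM or more in both uteri, against 58.4% of all genes in the table. The median member was at 70.2 and 66.0 RPKM in uterus 1 and uterus 2, or 68.12 ± 3.001 RPKM (SD of the medians, n = 2), where the median of all genes was 3.28 and 3.23 RPKM. A mean of 100 RPKM or more was reached by 26 members (31.3%) and by 2.07% of all genes. A mean of 50 RPKM or more was reached by 58 members (69.9%), against 5.26% of all genes, and 200 RPKM or more by 4 (Cox6c, Atp5b, Atp5a1 and Uqcrh), against 0.858%. Together the 83 genes made up 1.77% of summed RPKM in uterus 1 and 1.74% in uterus 2, and 25282 and 27890 reads, or 0.656% and 0.651% of all reads. Most of these transcripts are short, and RPKM divides by length.

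**Figure D1:**
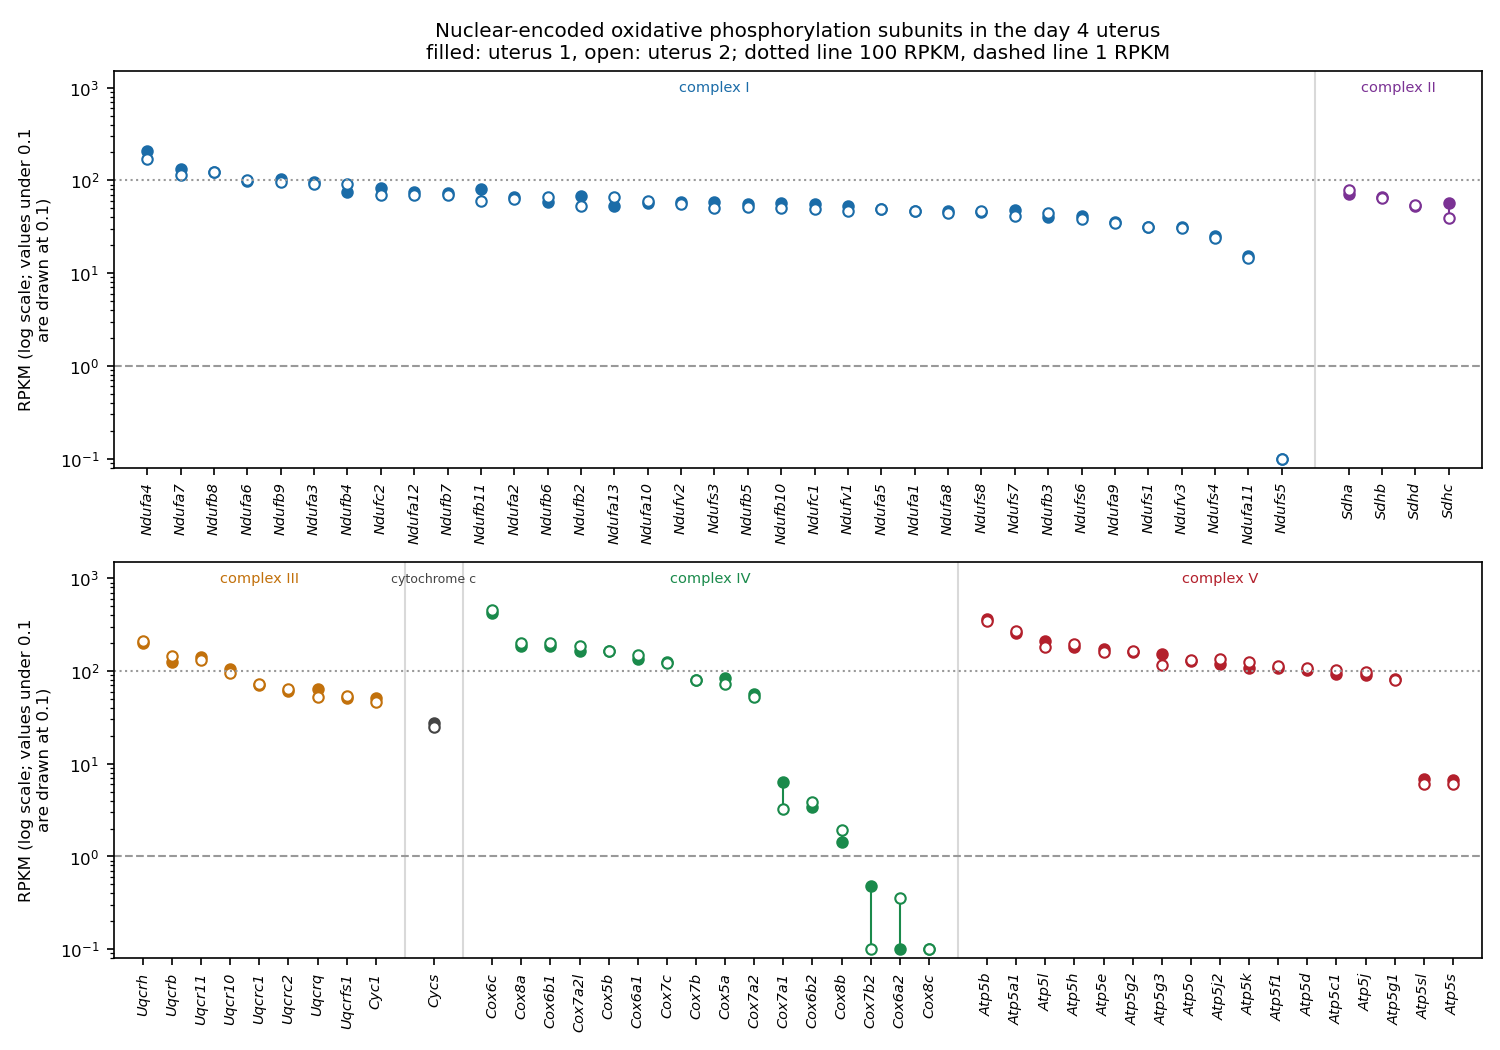
RPKM of nuclear-encoded respiratory subunits (log axis), in panels by complex, with filled points for uterus 1 and open points for uterus 2. Most members lie between 10 and 200 RPKM, with the tissue-restricted isoforms of complex IV at or below 6.41 RPKM. Cox6c, Atp5b, Atp5a1 and Uqcrh lie above 200 RPKM in both uteri, and Atp5l and Ndufa4 in uterus 1 only (210 and 205 RPKM).

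The complexes were ordered by their median levels. The median of complex I members was 56.8 and 52.3 RPKM in uterus 1 and uterus 2, that of complex II 61.6 and 59.5 RPKM, and that of complex III 70.2 and 72.2 RPKM. Complex IV had a median of 81.6 and 76.1 RPKM and complex V one of 119 and 126 RPKM. The order from I to V was the same in both uteri, and the values of neighbouring complexes did not overlap between uteri. By the mean of the uteri, complexes I and II were the closest neighbours, at 54.6 ± 3.16 and 60.6 ± 1.48 RPKM (SD, n = 2). Complexes III and IV lay at 71.2 ± 1.40 and 78.8 ± 3.86 RPKM, and in uterus 2 alone these were the closest. The place of complex IV depends on which isoforms are counted, since without its 6 tissue-restricted isoforms its median was 154 RPKM, above the 123 ± 5.04 RPKM of complex V. At 100 RPKM or more were 3 of 36 members of complex I, 0 of 4 of complex II, 4 of 9 of complex III, 7 of 16 of complex IV and 12 of 17 of complex V.

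Complex I takes electrons from NADH. Ndufa4 was the highest of the genes that carry its symbol, at 205 and 170 RPKM in uterus 1 and uterus 2. The Ndufa4 protein was first described in complex I and is now placed in complex IV. The next were Ndufa7, at 132 and 115 RPKM, and Ndufb8, at 122 and 124 RPKM, which are accessory subunits. The core subunits that bind NADH and take up its electrons (Ndufv1, Ndufv2 and Ndufs1) were lower, with a median of 53.3 and 46.6 RPKM. Ndufs1, the largest core subunit, was the lowest of these at 31.7 and 31.4 RPKM. Accessory genes of the Ndufb series, most of them in the membrane arm, had a median of 70.6 and 63.2 RPKM. The 10 genes of that series ran from Ndufb3, at 40.2 and 44.6 RPKM, to Ndufb8. The 12 genes of the Ndufa series, leaving out Ndufa4, had a median of 55.0 and 61.8 RPKM and ran from Ndufa11 to Ndufa7. Ndufs4 and Ndufs6, accessory subunits beside the core of the peripheral arm, were at 25.0 and 23.9 RPKM and at 41.4 and 38.5 RPKM. Of the complex I genes above 0, Ndufa11 was the lowest, at 15.3 and 14.6 RPKM, or 156 and 165 reads.

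Ndufs5, an accessory subunit of the complex I membrane arm at chr4:123389953-123395429 (NCBIM37), was listed at 0 RPKM in both uteri. A count of 0 allows up to 3 reads. Listed at 0 in both uteri were 2 of the 83 members and 23.4% of all genes, and the other member was Cox8c. Of the 599 bases of the Ndufs5 transcript, 84.5% have a second genomic match at 99.5% identity, at chr16:42955673-42956176. In the table the row BC002163 lies there (chr16:42955693-42956192), a gene that the GENCODE M1 annotation calls a processed pseudogene. BC002163 had 10.3 RPKM on 39 reads in uterus 1 and 10.5 RPKM on 44 reads in uterus 2. The smallest transcript length that these values allow is 984 bases, longer than the 500 bases of its span, as was so for 32 of 17426 genes above 0. The part of this second match in the 0 of Ndufs5 was not tested.

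Complex II, succinate dehydrogenase, also works in the citric acid cycle, and its 4 genes spanned the narrowest range. Sdha, the flavin-bound catalytic subunit, was at 71.9 and 77.8 RPKM in uterus 1 and uterus 2. Sdhb, which carries the iron-sulfur clusters, was at 66.1 and 64.2 RPKM. Of the membrane anchors, Sdhd was at 52.6 and 54.9 RPKM and Sdhc at 57.1 and 39.5 RPKM. The order of Sdha over Sdhb over both anchors held in each uterus, and the order of the anchors did not.

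In complex III most small subunits were higher than the subunits that carry electrons. Uqcrh, the hinge protein, was at 201 and 211 RPKM, Uqcrb at 126 and 147 RPKM and Uqcr11 at 141 and 131 RPKM. Cyc1, cytochrome c1, was the lowest member at 51.1 and 45.9 RPKM, and Uqcrfs1, the Rieske iron-sulfur protein, was next by mean, at 51.6 and 54.2 RPKM in uterus 1 and uterus 2. The core proteins Uqcrc1, at 70.2 and 72.2 RPKM, and Uqcrc2, at 61.5 and 63.4 RPKM, lay between, with a median of 65.9 and 67.8 RPKM. The gap between the small subunits (median 126 and 131 RPKM) and the electron carriers (51.38 and 50.04 RPKM) was wider than the gap between uteri, although Uqcrq, a small subunit at 63.2 and 52.3 RPKM, lay with the core proteins in uterus 1 and with the electron carriers in uterus 2. Cycs, the soluble cytochrome c of somatic cells, was below every complex III member at 27.3 and 25.1 RPKM, on 320 and 327 reads. Its transcript, at 3059 bases, is the longest among members above 0 by the length that the reads imply. Second genomic matches cover 44.3% of the annotated Cycs transcript, and their part in its level was not tested.

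Complex IV, cytochrome c oxidase, held the highest and several of the lowest genes. Cox6c was at 421 and 451 RPKM, on 812 and 965 reads, and ranked 111 of 22740 genes by mean. Cox8a followed at 184 and 199 RPKM, Cox6b1 at 184 and 198 RPKM, Cox7a2l (a factor that joins complexes into supercomplexes) at 166 and 184 RPKM, and Cox5b at 165 and 166 RPKM. Cox8a and Cox6b1 differed by less than either varied between uteri. Cox7c, a small membrane subunit, was at 125 and 122 RPKM. Cox5a was lower than Cox5b, with which it faces the matrix, at 83.7 and 72.7 RPKM. The 9 widely expressed subunits had a median of 136 and 149 RPKM. The 6 isoforms known from muscle or testis had one of 0.959 and 1.15 RPKM, on 20 reads in all in uterus 1 and 19 in uterus 2. Cox4i1, the widely expressed form of the largest nuclear-encoded subunit, falls outside the symbol rule and was at 290 and 289 RPKM.

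Complex V, the ATP synthase, was highest at its catalytic head. Atp5b, the β subunit that makes ATP, was at 366 and 350 RPKM, and Atp5a1, its α partner, at 259 and 271 RPKM. These were also the members with the most reads, from 2413 to 2805 in each library. The central stalk (Atp5c1, Atp5d and Atp5e) had a median of 102 and 108 RPKM. Its smallest subunit, Atp5e, was its highest gene at 175 and 162 RPKM. The peripheral stalk (Atp5f1, Atp5h, Atp5j and Atp5o), which holds the head still while the ring turns, had one of 117 and 123 RPKM. It ran from Atp5j, at 91.2 and 97.0 RPKM, to Atp5h, at 183 and 195 RPKM. Of the small membrane subunits, Atp5l was at 210 and 180 RPKM and was the third highest gene of the complex by mean. The lowest were Atp5s, at 6.67 and 6.01 RPKM, and Atp5sl, at 6.77 and 6.10 RPKM. The rule takes up both by their symbols, although neither is a structural subunit of the ATP synthase, and their levels were far below the 79.3 RPKM that was the lowest value of any structural Atp5 gene.

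Isoform families were compared within each uterus. In complex IV the form found in most tissues made up nearly all of each family. Cox6a1 was at 136 and 149 RPKM in uterus 1 and uterus 2, and its heart and skeletal muscle form Cox6a2 was at 0 and 0.357 RPKM, on 0 reads and 1 read. Against the level that 3 reads would give, Cox6a1 was at least 114-fold higher in uterus 1. Cox6b2, a form known from testis, was at 3.45 and 3.89 RPKM on 8 and 10 reads. Cox6b1 was 53.4-fold and 51.0-fold higher than Cox6b2 and made up 98.1% ± 0.061 of the pair (SD, n = 2). Cox7b2, also known from testis, had 1 read in uterus 1 and 0 reads in uterus 2, where Cox7b was at 79.5 and 79.6 RPKM. In the Cox8 family, Cox8b, known from muscle and brown fat, was at 1.44 and 1.94 RPKM on 2 and 3 reads, Cox8c was listed at 0 in both, and Cox8a made up 99.1% ± 0.135.

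Cox7a was the complex IV family whose muscle form took the largest part. Cox7a1, the heart and skeletal muscle form, was at 6.41 and 3.21 RPKM in uterus 1 and uterus 2, and Cox7a2 was at 56.0 and 52.4 RPKM. Cox7a2 was thus 8.74-fold and 16.3-fold higher and made up 92.0% ± 3.18 of the pair. Cox7a1 rests on 9 and 5 reads, so that its difference between the uteri was not detectable at this depth. Beyond the symbol rule, Cox4i2 was at 6.46 and 5.49 RPKM, which leaves Cox4i1 97.98% ± 0.217 of that pair. Ndufa4l2, a relative of Ndufa4, was at 7.32 and 8.30 RPKM, and Ndufa4 made up 96.0% ± 0.848. Cyct, the cytochrome c of sperm, was listed at 0 in both uteri.

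Markers of tissues that use the restricted isoforms were set beside them. Of 9 skeletal muscle genes 4 were at 1 RPKM or more in both uteri, and the list summed to 98.6 RPKM in uterus 1 and 113 RPKM in uterus 2, most of it from Acta1 at 78.4 and 89.4 RPKM. The fast troponin Tnni2 was at 15.3 and 14.4 RPKM, while the skeletal myosin genes Myh1, Myh2 and Myh4 had at most 1 read in a library and Myl1 had 0. Of 5 heart genes only Tnni3 passed 1 RPKM, the list summed to 4.63 and 3.32 RPKM, and Myh6 and Myl7 were at 0. The 3 brown fat genes summed to 0.502 and 0.327 RPKM with Ucp1 at 0, and the 4 white fat genes to 0.0801 and 0.123 RPKM with Adipoq at 0. The 6 testis and sperm genes summed to 1.80 and 0.587 RPKM, with Prm2, Tnp1 and Odf1 at 0. The part of any such cells in the levels of Cox7a1 and Cox6b2 was not tested.

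**Figure D2:**
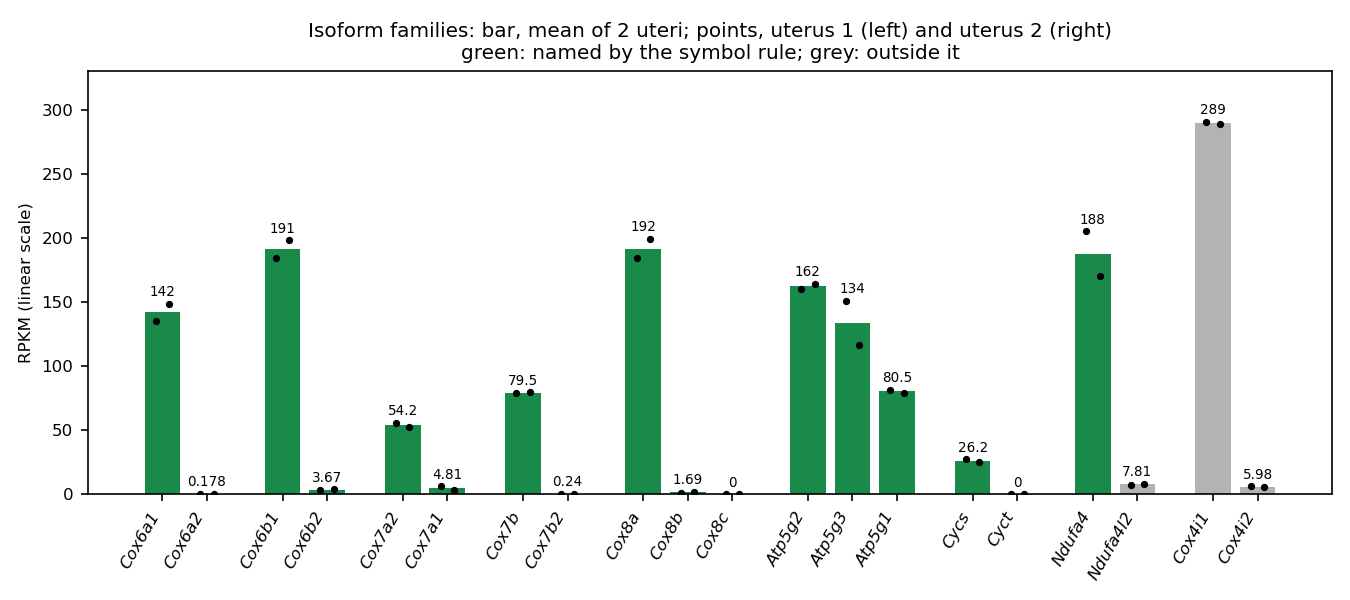
RPKM of each gene of the isoform families on a linear axis from 0, with bars for the mean of the 2 uteri and points for each uterus. In the Cox families 1 gene stands high and the others lie near 0, whereas Atp5g1, Atp5g2 and Atp5g3 all stand clearly above 0.

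In the c ring of the ATP synthase every gene of the family was abundant. It is a ring of identical small proteins in the membrane that turns as protons pass, and its protein is encoded by 3 genes whose mature products are the same. Atp5g2 was at 160 and 165 RPKM in uterus 1 and uterus 2, Atp5g3 at 151 and 117 RPKM, and Atp5g1 at 81.7 and 79.3 RPKM. Their shares were 43.2% ± 3.46, 35.4% ± 4.30 and 21.4% ± 0.844 of their sum. Second genomic matches cover 100% of the Atp5g2 transcript and 88.1% of the Atp5g1 transcript, and Atp5g3 has none. The part of these matches in the shares was not tested. Atp5g1 was the lowest in both uteri, and Atp5g2 was 1.96-fold and 2.07-fold above it. Atp5g2 and Atp5g3 lay 1.06-fold apart in uterus 1 and 1.41-fold in uterus 2.

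The sequences of these 3 genes show where messages for 1 protein differ. Their translated coding sequences in GENCODE M1 share the last 78 residues, while the longest identical stretch between any 2 of the transcripts is 21 bases. Shown are the last 120 bases before the stop codon, which lie in coding exons of Atp5g1 at chr11:95934107-95937008, Atp5g2 at chr15:102493299-102501478 and Atp5g3 at chr2:73746507-73749351 (gene spans, NCBIM37, minus strand). Capitals mark the 30 positions where the 3 genes are not all the same. They fall in 26 of 40 codons, and 26 of them are the third base of a codon.
Atp5g1: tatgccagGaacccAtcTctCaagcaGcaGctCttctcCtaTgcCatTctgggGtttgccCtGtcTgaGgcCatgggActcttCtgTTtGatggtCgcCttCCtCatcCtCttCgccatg
Atp5g2: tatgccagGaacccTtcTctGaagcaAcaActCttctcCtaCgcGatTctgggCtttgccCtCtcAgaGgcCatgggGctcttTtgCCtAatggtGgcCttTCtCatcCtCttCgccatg
Atp5g3: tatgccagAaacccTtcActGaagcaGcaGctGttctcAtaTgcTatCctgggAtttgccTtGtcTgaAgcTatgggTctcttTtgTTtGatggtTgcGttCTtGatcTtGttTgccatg
The complex IV pairs are further apart, since the translated proteins of Cox6a1 and Cox6a2 are identical at 64.5% of 93 aligned residues, those of Cox7a2 and Cox7a1 at 57.5%, those of Cox6b1 and Cox6b2 at 54.7% and those of Cox8a and Cox8b at 42.6%.

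Copies elsewhere in the genome can still draw or lose reads, since many of these genes have processed pseudogenes. Of the 83 transcripts, 67 had no second match of at least 50 bases at 98% identity or more, and 10 had one over at least 50% of their length. The 10 were Atp5f1, Atp5g1, Atp5g2, Atp5h, Atp5l, Cox5b, Ndufs3, Ndufs5, Uqcr11 and Uqcrb. Their mean levels ran from 0 to 195 RPKM with a median of 136 RPKM, where the 68 members matched over less than 10% had a median of 61.6 RPKM. Those 68 include the 6 tissue-restricted isoforms of complex IV, Atp5s and Atp5sl, which are low. The 5 members matched over 10% to under 50% had a median of 83.1 RPKM. How reads with several matches were counted is not given in the sources used here, and the part of these copies in the levels was not tested. In addition, 9 members overlap another row of the table, among them Ndufb11 (with Rbm10) and Atp5j (with Gabpa), and reads there cannot be told apart without strand.

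**Figure D3:**
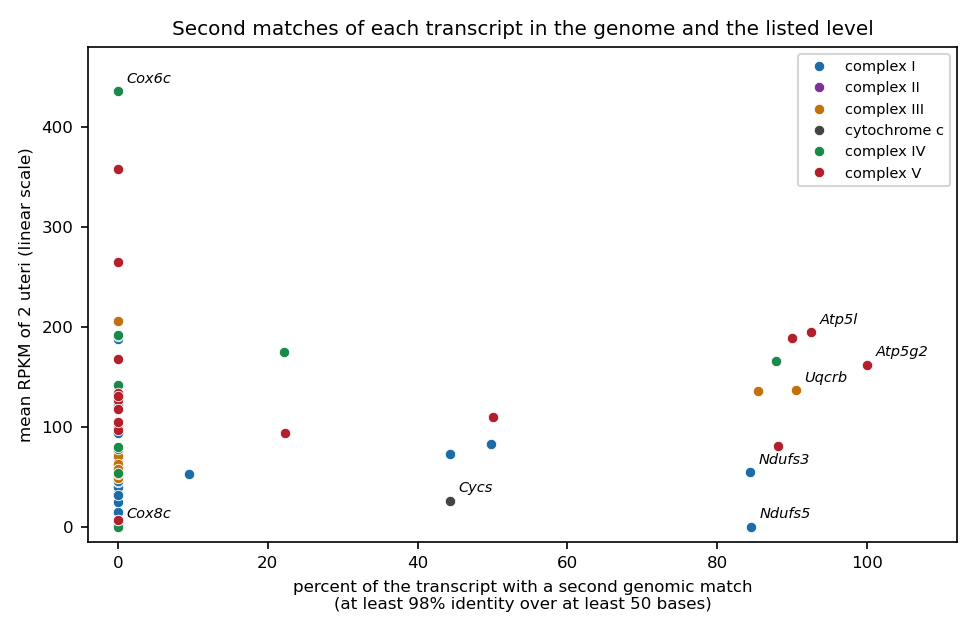
Mean RPKM of the 2 uteri (linear axis) against the percent of each transcript that has a second match in the genome, coloured by complex. Most members lie at 0 percent over the whole range of levels, and Ndufs5 is the member at 0 RPKM with a match over 84.5% of its transcript.

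The uteri were then compared member by member. On the log2(RPKM + 0.1) scale, the median difference of uterus 2 from uterus 1 was −0.04 over the 79 members with a mean of 1 RPKM or more, and their SD was 0.20. Over all 13647 genes at that level, the median was 0.00 and the SD 0.44. None of the 79 members was 2-fold or more apart, against 2.6% of all genes. Among genes averaging at least 10 RPKM, 0.657% of all genes and 0 of 74 members were that far apart. A difference of 0.32 or more on the log2 scale was seen in 6 members (Sdhc, Ndufb11, Atp5g3, Ndufb2, Cox7a1 and Cox8b), against 24.3% of all genes. At a mean of 10 RPKM or more, where counting error is smaller, the SD was 0.16 over 74 members and 0.27 over all genes. At that level 33 of 74 members (44.6%) were higher in uterus 2, against 52.3% of all genes. By complex, over members with a mean of at least 1 RPKM, 9 of 35 were higher in uterus 2 in complex I (median log2 difference −0.07). The counts were 2 of 4 in complex II (0.01), 5 of 9 in complex III (0.04), 9 of 13 in complex IV (0.10) and 10 of 17 in complex V (0.06). Of all genes at that level, 6842 of 13647 were higher in uterus 2. The median of complex IV was 0.05 when only members of at least 10 RPKM were taken.

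A count test was run on the reads, to set these differences against counting error. Of 78 members tested, 3 differed between the libraries in an exact binomial test at an adjusted p under 0.05 (3.85%), against 4.87% of all 15160 genes tested, so that the members were near the background. At an unadjusted p under 0.05 there were 7 members (8.97%), against 15.9% of all genes. All 3 were higher in uterus 1, where 2.61% of all genes were called, and 0 members against 2.26% of all genes were called higher in uterus 2. The test compares these 2 libraries and not a condition, and with 1 library per animal the difference between animals and that between library preparations cannot be told apart.

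Sdhc, the largest difference of the 3, had 172 reads in uterus 1 and 132 in uterus 2, a log2 difference of −0.53 with a 95% interval from −0.87 to −0.20 (exact binomial test, Benjamini-Hochberg adjusted p = 0.0357). Ndufb11, an accessory subunit encoded on the X chromosome, was at 80.1 and 60.3 RPKM on 262 and 219 reads, a log2 difference of −0.41 (exact binomial, adjusted p = 0.0464). Atp5g3 had 393 and 337 reads, a log2 difference of −0.37 (exact binomial, adjusted p = 0.0166). With the smallest whole reads that the values allow, only Atp5g3 was called and the adjusted p was 0.266 for Sdhc and 0.0542 for Ndufb11. The other gene of the c ring with a large share, Atp5g2, was at nearly the same level in both uteri. The largest differences in the other direction among members at 10 RPKM or more were those of Ndufa13 (53.0 and 65.8 RPKM, log2 0.31), Ndufb4 (74.7 and 91.6 RPKM, log2 0.29) and Uqcrb (126 and 147 RPKM, log2 0.22), and none of them passed the adjusted test. The levels of the 79 members kept nearly the same order in both uteri, with a rank correlation of 0.98 across genes of the same 2 libraries.

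**Figure D4:**
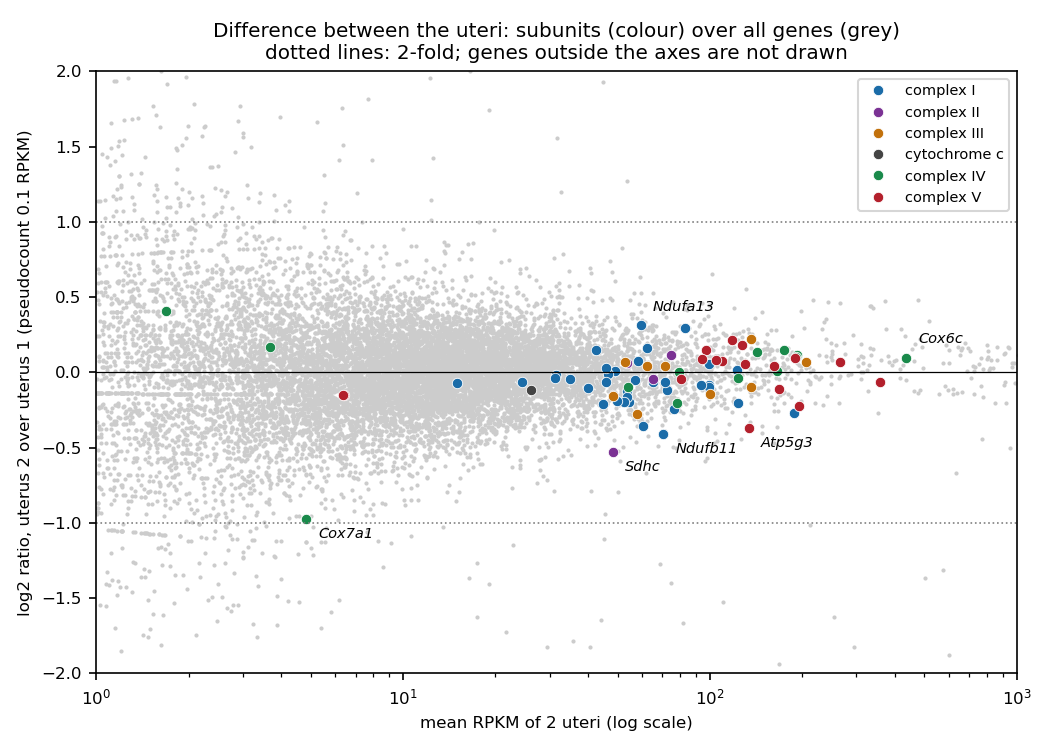
Log2 ratio of uterus 2 over uterus 1 against mean RPKM (log axis), with respiratory subunits coloured by complex over all genes in grey. Subunits with a mean of 1 RPKM or more, the ones drawn, stay within the dotted 2-fold lines, and Cox7a1 at low RPKM comes closest to them.

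Longer transcripts had lower RPKM in some complexes. RPKM is itself divided by length, so the correlations below cannot tell a lower amount of message from the scaling. No correlation over all genes was set beside them. Lengths here are those that the recovered reads imply, and those of Ndufa10 and Uqcrh are uncertain. Across the 79 members the rank correlation of length with mean RPKM was −0.32, and within the 35 members of complex I it was −0.49, all across genes that share the same libraries. It was −0.60 over the 9 members of complex III, −0.23 over the 17 of complex V and 0.088 over 13 of complex IV. The 51 members shorter than 1000 bases had a median of 93.6 RPKM and the 28 longer ones 55.3 RPKM. With annotated transcript lengths, an alternative chosen after seeing the data, the rank correlation was −0.29 over the 79 members, −0.43 in complex I, −0.27 in complex III, −0.14 in complex V and 0.077 in complex IV. The medians were then 94.1 RPKM for 49 shorter and 55.7 RPKM for 30 longer members. Atp5b and Atp5a1 were high although their transcripts are long.

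Promoters of the members were searched for short motifs, because nuclear respiratory factor 1 and the ETS factor GABPA (also called NRF-2) are known regulators of respiratory chain genes. RefSeq promoters (GRCm38.p6, from 250 bases before to 50 bases after the start) were matched for 70 of 83 members and 17545 of 22740 genes. The core of the NRF1 motif, GCGCATGC, was present on either strand in 11 of 70 members (15.7%), in 3.66% of all genes and in 5.34% of genes at 50 RPKM or more. The ETS motif CCGGAAG was present in 15 members (21.4%) and in 11.9% of all genes, but in 18.8% of genes at 50 RPKM or more. GGGCGG, an SP1 motif, was present in 29 members (41.4%), in 47.0% of all genes and in 66.4% of genes at 50 RPKM or more. Overlapping matches were each counted. For comparison, 11.9% of 67 mitochondrial ribosome promoters held the NRF1 core and 34.3% held the ETS motif.

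Promoters of 4 members are shown because they span what was found, from Cycs, a long-known target of nuclear respiratory factor 1, to the widely expressed and the restricted form of Cox8. Each is written in the direction of its gene, which lies on the minus strand in all 4 cases, and capitals mark the motif letters on either strand. The first is Cycs (chr6:50566520-50566819, GRCm38.p6 as for the others), with 1 NRF1 core and 1 SP1 motif. The next is Cox6a1 (chr5:115348909-115349208), with 2 overlapping NRF1 cores, 1 ETS motif and 2 SP1 motifs. Then come Cox8a (chr19:7217567-7217866), with 2 ETS motifs, and Cox8b (chr7:140900397-140900696), with none of the motifs and 2 CG dinucleotides, where Cox8a has 19.
Cycs: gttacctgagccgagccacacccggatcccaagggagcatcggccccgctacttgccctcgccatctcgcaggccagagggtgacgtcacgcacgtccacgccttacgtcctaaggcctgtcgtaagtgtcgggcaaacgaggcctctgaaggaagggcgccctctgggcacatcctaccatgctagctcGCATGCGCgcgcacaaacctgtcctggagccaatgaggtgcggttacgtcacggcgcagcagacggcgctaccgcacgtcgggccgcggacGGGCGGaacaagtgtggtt
Cox6a1: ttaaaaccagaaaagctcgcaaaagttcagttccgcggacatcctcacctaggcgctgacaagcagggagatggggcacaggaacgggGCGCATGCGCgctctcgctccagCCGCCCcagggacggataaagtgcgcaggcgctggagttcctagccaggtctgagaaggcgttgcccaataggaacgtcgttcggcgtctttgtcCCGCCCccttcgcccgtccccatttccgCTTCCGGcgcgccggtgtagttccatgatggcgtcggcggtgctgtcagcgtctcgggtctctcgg
Cox8a: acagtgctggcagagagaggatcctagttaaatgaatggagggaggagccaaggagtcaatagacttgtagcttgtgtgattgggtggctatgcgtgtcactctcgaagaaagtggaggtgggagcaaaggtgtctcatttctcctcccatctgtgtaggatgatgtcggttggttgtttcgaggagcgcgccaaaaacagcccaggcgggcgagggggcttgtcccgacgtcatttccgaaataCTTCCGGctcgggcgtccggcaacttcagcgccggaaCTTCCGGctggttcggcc
Cox8b: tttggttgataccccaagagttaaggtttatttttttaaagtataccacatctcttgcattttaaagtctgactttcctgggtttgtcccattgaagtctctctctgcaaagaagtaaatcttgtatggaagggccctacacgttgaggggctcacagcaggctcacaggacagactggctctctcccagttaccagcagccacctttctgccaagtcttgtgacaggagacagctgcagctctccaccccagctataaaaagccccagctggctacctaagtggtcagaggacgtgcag
Levels of members with and without a motif overlapped. Cycs was at 26.2 ± 1.53 RPKM with an NRF1 core, Cox6a1 was at 142 ± 9.20 RPKM with both kinds of motif, and Cox8a was at 192 ± 10.6 RPKM without an NRF1 core (SD, n = 2). Among matched members with a mean of 1 RPKM or more, which leaves out Ndufs5 and Cox7b2, the 11 with an NRF1 core had a median of 99.7 RPKM and 57 without one 71.3 RPKM. The 15 with an ETS motif had a median of 136 RPKM and 53 without one 70.2 RPKM. For the SP1 motif the order was the other way, with 63.8 RPKM for 28 members with it and 75.7 RPKM for 40 without it. A match is a description of letters and not evidence of a bound factor.

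The factors themselves were at lower levels than most subunits. Nrf1 was at 7.52 and 7.21 RPKM in uterus 1 and uterus 2, Gabpa at 19.4 and 22.0 RPKM, Esrra (the estrogen-related receptor α) at 12.6 and 11.3 RPKM and Yy1 at 30.6 and 31.3 RPKM. The coactivators of this program differed widely. Pprc1 was at 13.6 and 11.2 RPKM, Ppargc1b at 1.498 and 1.735 RPKM, and Ppargc1a, the PGC-1α of muscle and brown fat, at 0.281 and 0.362 RPKM on 7 and 10 reads. Esrrg was the lowest of the list at 0.0935 and 0.168 RPKM. Of 19 genes for such factors and for the upkeep of mitochondrial DNA, 17 were at 1 RPKM or more in both uteri, with a median of 11.18 and 10.01 RPKM. Tfam, which packages mitochondrial DNA, was at 11.18 and 10.01 RPKM.

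By their medians, assembly factors were lower than the subunits they help to join. Single genes overlapped, since Acad9 was above the subunit Ndufa11 (15.3 and 14.6 RPKM) and Cox20 above Cox7a2 (56.0 and 52.4 RPKM). The 13 complex I assembly factors had a median of 8.95 and 9.59 RPKM, from Ndufaf5 at 4.87 and 3.87 RPKM to Acad9 at 20.3 and 19.4 RPKM, where complex I subunits had 56.8 and 52.3 RPKM. The 15 for complex IV had a median of 14.7 RPKM in both uteri, with Cox20 the highest at 71.0 and 97.0 RPKM and Sco2, a copper chaperone, listed at 0 in both. Of 4 complex II assembly factors looked up by symbol, Sdhaf1 was at 8.63 and 8.99 RPKM and Sdhaf2 at 11.8 and 12.1 RPKM. Sdhaf3 and Sdhaf4 were not found under those symbols, and older names were not searched. Of 4 factors for complex III, Uqcc was the highest at 15.04 and 12.40 RPKM and Lyrm7 the lowest at 0.598 and 0.539 RPKM. Among the assembly and inhibitor genes of complex V, Atpif1, which encodes the inhibitor of ATP hydrolysis, stood with the subunits at 141 and 132 RPKM, and Atpaf1 was the lowest at 9.07 and 10.4 RPKM.

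Other mitochondrial genes were set beside the subunits. The 13 citric acid cycle genes had a median of 40.7 and 42.8 RPKM, from Idh3a at 22.2 and 19.4 RPKM to Cs, citrate synthase, at 85.0 and 82.3 RPKM. Of the carriers that serve ATP synthesis, the ADP/ATP carrier Slc25a4 was the highest at 218 and 206 RPKM, above the median subunit. Ucp1 and Ucp3, uncoupling proteins of brown fat and muscle, were listed at 0. The 76 genes of the mitochondrial ribosome had a median of 21.4 and 23.2 RPKM and the 80 of the cytosolic ribosome one of 746 and 777 RPKM. The respiratory subunits, at 70.2 and 66.0 RPKM, thus lay above the citric acid cycle and the mitochondrial ribosome and below the cytosolic ribosome in each uterus.

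**Figure D5:**
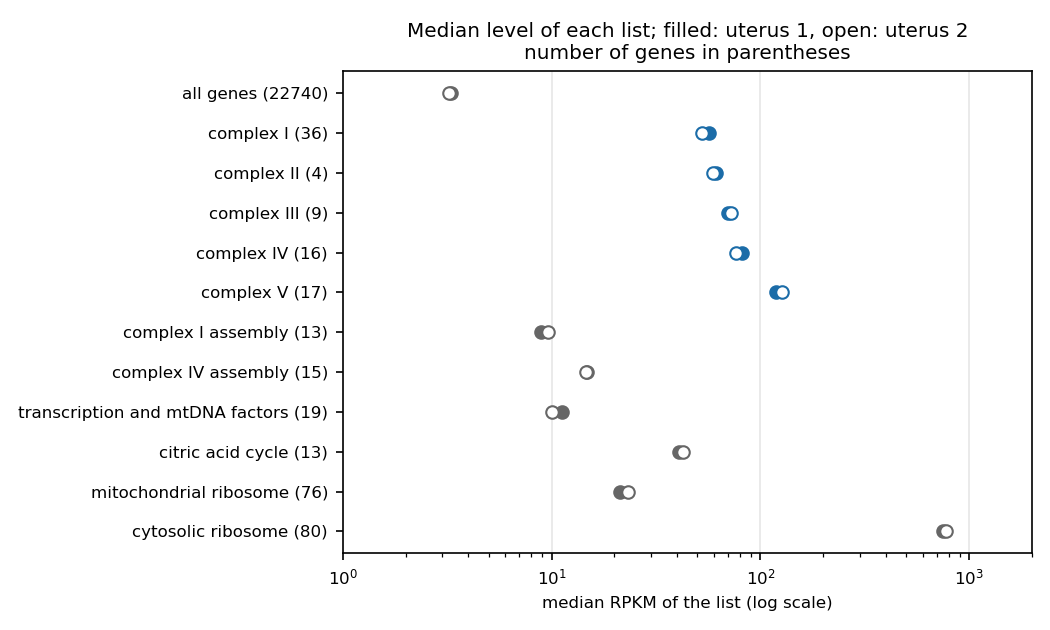
Median RPKM of each gene list on a log axis, filled for uterus 1 and open for uterus 2, with the number of genes in parentheses. Respiratory subunits lie to the right of assembly factors and of the mitochondrial ribosome, and the cytosolic ribosome lies furthest right.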

How the data were processed

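RNA of whole uterus was sequenced for 2 C57BL/6 mice at pregnancy day 4. Per the labels, total RNA was extracted with TRIzol and 1 microgram went into the TruSeq kit. Poly-A selection and a HiSeq2500 instrument are named in the design text. The authors deposited RPKM values per gene. The submitters' processing notes name TopHat, edgeR and mm9, without versions or roles. The annotation release, the counting program and the use of strand are not given in the sources used here. The 2 deposited tables held equal values for all 22740 genes.

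The labels give 1 group, so levels are described per library, with the mean and SD of n = 2 animals and no test between groups. Detection was set at 1 RPKM and log2 values used a pseudocount of 0.1 RPKM. Whole reads were recovered from the RPKM values: for 100% of 17426 genes above 0, the scaled values were ratios of whole numbers within a relative tolerance of 1e-13. A factor common to both libraries was chosen from annotated transcript lengths. This leaves the reads uncertain by such a factor, most of all for Uqcrh and Ndufa10, and the RPKM unaffected. The recovered length equalled an annotated length for 4159 genes. The recovered sums lie above the library totals that the RPKM scale implies, 3834174 in uterus 1 and 4256101 in uterus 2. Recovered reads, 3856803 and 4285352 in all, entered a two-sided exact binomial test of all 15160 genes with at least 6 reads (scipy 1.17.1), adjusted by Benjamini-Hochberg with statsmodels 0.14.6. Intervals and limits cover counting error only, since molecules carried no identifiers, and p-values compare these 2 libraries. The scripts were tested on simulated data.

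Gene coordinates are counted from 1 on NCBIM37, the assembly also called mm9. Second matches of transcripts (GENCODE M1) were found with BLAST 2.17.0. Promoters and their coordinates came from RefSeq on GRCm38.p6. Values are given for the highest and lowest members of each complex, isoform families, members under 10 RPKM and the largest differences. Other named members, and BC002163, were added after their values were seen. Members and lists were chosen with earlier results of these data known. Alternatives covered the pseudocount, the filter and thresholds, TPM, the read recovery, each library alone and the membership of the groups. The values of 1 member are not reported here, and it is counted in the totals.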

Additional observations from a re-analysis of the deposited data

How the results depend on the processing

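Over the alternatives, 18 values moved by more than 1 SD (counts by more than 1.5 times). No median log2 difference between the libraries changed sign, but the order of complexes IV and V did change. Complex IV had a median of 123.4 RPKM without members at 0 in either library and 154 RPKM without the restricted isoforms. Complex V was at 122.8 RPKM in the main setting. A single library of 2 always lies within 1 SD of their mean, so its values show the spread and not stability. With 1 library at a time, medians ranged from 66.0 to 70.2 RPKM over all members, from 52.3 to 56.8 RPKM in complex I, from 59.5 to 61.6 in complex II, from 70.2 to 72.2 in complex III, from 76.1 to 81.6 in complex IV and from 119 to 126 in complex V. Detected members numbered 79 to 79 and members at 100 RPKM or more 27 to 28. Isoform shares ranged from 40.8% to 45.6% for Atp5g2, 97.8% to 98.1% for Cox4i1, 99.8% to 100% for Cox6a1, 98.1% to 98.2% for Cox6b1, 89.7% to 94.2% for Cox7a2, 99.4% to 100% for Cox7b, 99.0% to 99.2% for Cox8a, 100% to 100% for Cycs and 95.4% to 96.6% for Ndufa4. Membership moved medians the most: without members at 0 in either library the median was 123 RPKM in complex IV and 71.3 over all members, without the tissue-restricted isoforms 154 and 72.4, and without members that have a second match over at least 50% of the transcript 63.3 in complex III and 64.8 over all. Complex V had 130 RPKM without Atp5s and Atp5sl and 116 with the subunits outside the symbol rule. The alternatives without restricted isoforms and without second matches were chosen after seeing the data. As shares of reads, the values were 97.8% for Cox6b1, 95.9% for Cox7a2, 99.4% for Cox8a, 39.6% for Atp5g2 and 92.4% for Ndufa4. At 50 RPKM 58 members passed and at 200 RPKM 4. Without a filter 2 members (Cox6a2 and Cox7b2, with 1 read each) were 2-fold apart. With the filter, 6 were apart by 0.32 or more on the log2 scale. With the smallest possible reads 1 member was called by the binomial test. No paired analysis was possible because the labels name a single group. Depth limits the restricted isoforms, which rest on 10 reads or fewer in a library.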

Other observations

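Subunits whose symbols fall outside the rule were also present. Usmg5, a small ATP synthase subunit, was at 116 and 77.2 RPKM in uterus 1 and uterus 2, a log2 difference of −0.59 between the libraries (exact binomial test, Benjamini-Hochberg adjusted p = 0.0267). The gene 2010107E04Rik, which encodes another small subunit of the ATP synthase, was at 110 and 109 RPKM, close together in both animals. Ndufab1, the acyl carrier protein bound in complex I, was at 36.5 and 36.4 RPKM. Among carriers that supply the ATP synthase, the ADP/ATP carrier Slc25a5 was at 189 and 171 RPKM and the phosphate carrier Slc25a3 at 161 and 162 RPKM. Slc25a31, the ADP/ATP carrier of sperm, had 1 read in uterus 1 and 0 in uterus 2. Ucp2, an inner membrane carrier found in many tissues, was at 29.9 and 33.7 RPKM.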
